A study of Mus musculus with 5 samples.

Results

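The D cyclins Ccnd1, Ccnd2 and Ccnd3, the cyclin-dependent kinase (CDK) inhibitors Cdkn1a, Cdkn1b, Cdkn2a, Cdkn2b and Cdkn2c, and Rgcc, the regulator of cell cycle gene, were followed in mouse chondrocytes over 15 days of culture. All probe sets annotated to exactly 1 of these 9 gene symbols were taken, which gave 22 of the 45101 probe sets on the array. The 9 genes are among 18193 with a probe set of their own, and all 9 were among the 11075 genes whose brightest probe set passed an intensity filter. Values are array intensities on a linear scale, in which each array had been scaled to a common mean. The cells were primary chondrocytes from ribs of E18.5 embryos of the FVB strain, grown on gelatin in medium with serum, ascorbic acid and beta-glycerophosphate, and the labels name no genetic change or treated arm. There was 1 array for each of days 2, 6, 9, 12 and 15, so a difference between days cannot be set against replicate error, and the labels do not say whether the dishes came from a common isolate.

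D cyclins are the first cyclins made when a cell receives growth signals. They activate CDK4 and CDK6, which phosphorylate the retinoblastoma protein and so release E2F transcription factors that switch on genes for DNA replication. The INK4 and Cip/Kip inhibitors hold this step back, INK4 proteins by binding CDK4 and CDK6 themselves and Cip/Kip proteins by binding complexes of cyclins and CDKs. In the growth plate, the cartilage of growing bones, cyclin D1 is known for its part in chondrocyte proliferation and Cip/Kip inhibitors for their part in leaving the cell cycle before hypertrophy.

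The 9 genes did not move as a block. Rgcc and the INK4 inhibitor gene Cdkn2b were many times higher late in culture. The Cip/Kip inhibitor gene Cdkn1a was lower after day 2 and lowest at day 9 or 12. Ccnd1 was lower at day 6 and later, at day 6 by 1.81-fold with its brightest probe set and 2.79-fold and 2.65-fold with the others. By their brightest probe sets Ccnd2, Cdkn2a and Cdkn2c, like Ccnd1, stayed within 2-fold of day 2. By its brightest probe set, 4 of the 9 genes lay 2-fold or more above day 2 at day 15 (Ccnd3, Cdkn1b, Cdkn2b and Rgcc), where 16.2% of all kept genes were. None of the 9 was at least 2-fold lower, where 11.6% of all kept genes were. With 9 members these counts are a description, and the median log2 difference was 0.62 over the members and 0.00062 over all kept genes. Ccnd3 dropped just under 2-fold with quantile normalization (log2 difference 0.99) and with a pseudocount (0.99), which left 3 genes. The call of Ccnd3 and of Cdkn1b rested on the day 15 array: at day 12 against day 2 only Cdkn2b and Rgcc were at least 2-fold higher, where 16.1% of genes were, and Cdkn1a was at least 2-fold lower, where 11.4% were.

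**Figure D1:**
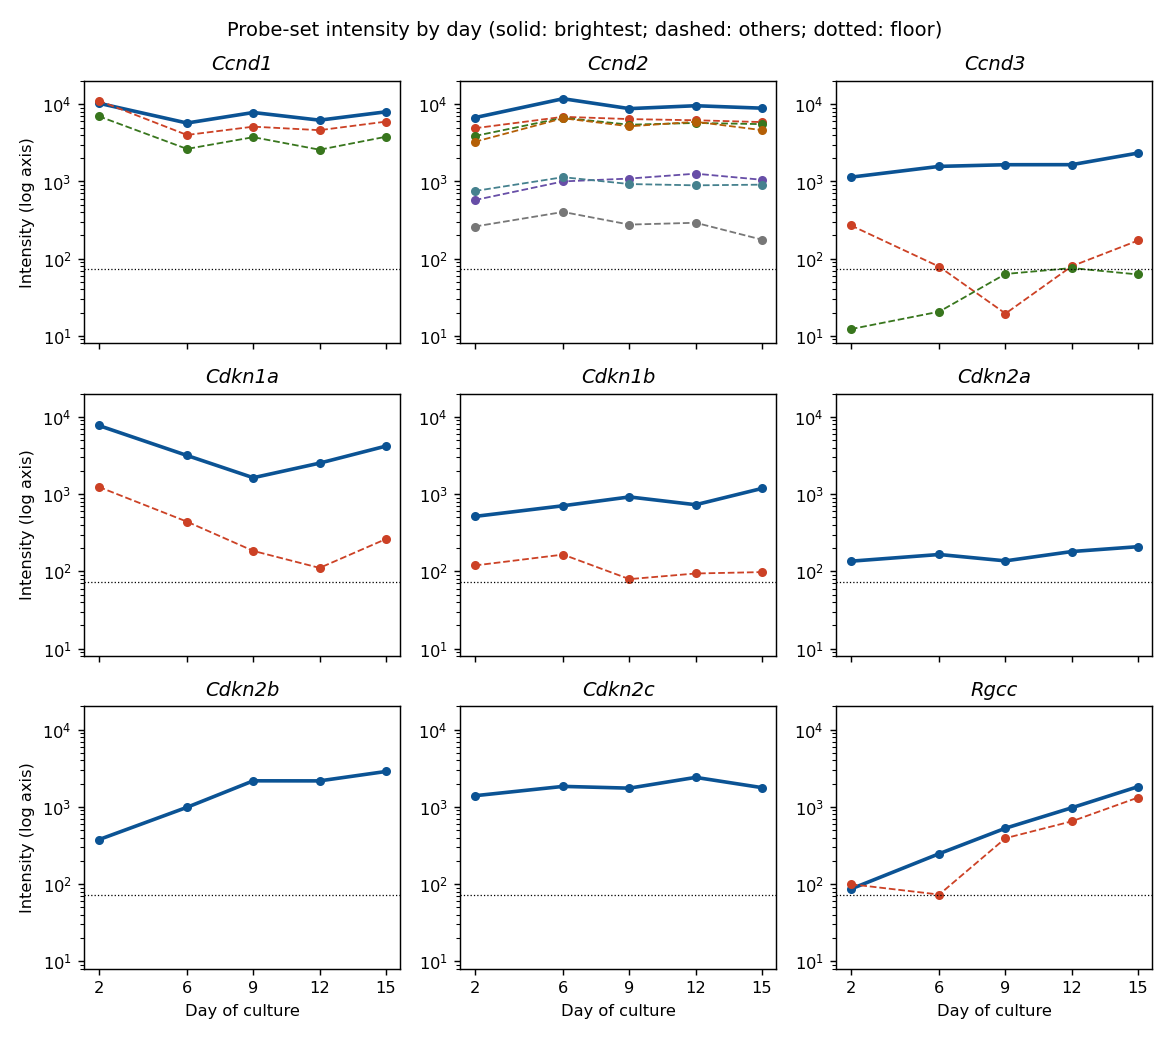
Intensity of every probe set of the 9 genes (log axis) on the 5 arrays, by day of culture, with the brightest probe set of each gene as a solid line, the others dashed, and the floor of 73.1 dotted. The solid line of Rgcc ends at 1828 on day 15, against 86.3 on day 2, and that of Cdkn1a is lowest at day 9.

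Sequence upstream of the transcription start is shown for the gene that was highest relative to day 2 (Rgcc), for Cdkn2b, for its neighbour Cdkn2a, which did not share its course, and for Cdkn1a. Each is the 250 bases before a RefSeq start on the gene's strand in assembly GRCm38.p6, which is of another mouse strain (C57BL/6J). Capitals mark matches, on either strand, to the TATA box TATAAA, the GC box GGGCGG, the AP-1 site TGANTCA, the cAMP response element TGACGTCA, the E-box CACGTG or the E2F site TTTNNCGC. The windows are chr14:79301636-79301885 (minus strand) for Rgcc, chr4:89311033-89311282 (minus strand) for Cdkn2b, chr4:89294620-89294869 (minus strand) for the first of 2 Cdkn2a starts and chr17:29093519-29093768 (plus strand) for the second of 2 Cdkn1a starts.
Rgcc: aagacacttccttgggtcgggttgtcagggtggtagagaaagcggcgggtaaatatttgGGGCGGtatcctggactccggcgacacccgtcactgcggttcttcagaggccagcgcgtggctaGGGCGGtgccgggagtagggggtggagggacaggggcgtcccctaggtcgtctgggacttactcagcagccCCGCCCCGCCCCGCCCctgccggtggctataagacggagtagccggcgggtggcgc
Cdkn2b: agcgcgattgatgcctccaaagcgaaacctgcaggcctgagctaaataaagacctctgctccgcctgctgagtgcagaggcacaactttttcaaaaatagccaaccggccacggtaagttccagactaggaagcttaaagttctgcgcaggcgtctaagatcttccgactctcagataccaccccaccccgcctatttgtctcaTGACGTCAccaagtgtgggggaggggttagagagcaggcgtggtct
Cdkn2a: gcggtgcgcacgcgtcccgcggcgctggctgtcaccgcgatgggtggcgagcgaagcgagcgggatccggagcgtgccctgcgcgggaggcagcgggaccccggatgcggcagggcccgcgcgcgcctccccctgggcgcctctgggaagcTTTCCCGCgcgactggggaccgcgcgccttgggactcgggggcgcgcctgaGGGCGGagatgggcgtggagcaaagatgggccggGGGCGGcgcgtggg
Cdkn1a: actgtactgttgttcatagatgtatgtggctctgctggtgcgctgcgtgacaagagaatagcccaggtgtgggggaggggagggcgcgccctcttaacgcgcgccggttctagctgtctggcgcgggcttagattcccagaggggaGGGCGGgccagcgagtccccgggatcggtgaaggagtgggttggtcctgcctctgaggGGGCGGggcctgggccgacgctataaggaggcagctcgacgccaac
The Rgcc window held 5 GC boxes, of which 3 overlap one another by 1 base, and none of the other motifs searched. The Cdkn2b window held no GC box and 1 cAMP response element, whose first base lies 46 bases before the start. The Cdkn2a window shown held 2 GC boxes and 1 E2F site, 99 bases before its start. The window of the other Cdkn2a start held no GC box and 1 E2F site, 244 bases before that start. The Cdkn1a window shown held 2 GC boxes, and that of the other Cdkn1a start held none of the motifs. Over all 32851 windows of 250 bases, 32.7% held a GC box, 1.55% the cAMP response element, 4.28% the E2F site, 12.4% the TATA box, 6.75% the AP-1 site and 6.02% the E-box. A match of letters is not a binding site, and which start was used in these cells was not measured. Promoter windows were matched for 7 of the 9 genes.

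Among the D cyclins, Ccnd1 was lower after day 2 by each of its 3 probe sets. Cyclin D1 is the D cyclin most often studied as a target of mitogen signalling. Its brightest probe set had intensities of 10335, 5718, 7825, 6227 and 7985 on days 2, 6, 9, 12 and 15. The next had 11175, 4005, 5131, 4619 and 5963 on the same days. The third had 7011, 2642, 3751, 2580 and 3795. All 3 were highest at day 2, and all were higher at day 9 than at day 6 and at day 15 than at day 12. At day 15 the level was below day 2 by 1.29-fold, 1.87-fold and 1.85-fold with the 3 probe sets, and at day 6 it was 1.81-fold, 2.79-fold and 2.65-fold lower.

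Ccnd2, which encodes a cyclin of the same activity, differed from Ccnd1 in that its lowest day was day 2 by 6 of its 7 probe sets. The brightest had 6706, 11803, 8786, 9577 and 8904 in order of day. Relative to day 2 it was 1.76-fold higher at day 6 and 1.33-fold higher at day 15. The other 6 probe sets lay 1.41-fold to 2.02-fold above day 2 at day 6. At day 15 the 7 log2 differences from day 2 lay between -0.56 and 0.88, and the lowest came from the dimmest probe set, with 177 at day 15 and 261 at day 2. Ccnd1 at its minimum on day 6 and Ccnd2 at its maximum on day 6 were thus opposite at that array by their brightest probe sets.

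Ccnd3, the D cyclin that is more often tied to differentiating cells, had 1138, 1569, 1649, 1652 and 2335 by its brightest probe set. Each value was above the one before it, though days 9 and 12 were almost level, and day 15 was 2.05-fold higher than day 2. The other probe sets were dim. The next had 270, 78.9, 19.5, 80.0 and 172, lower at day 15 than at day 2 by 1.57-fold, and the third had 12.2 to 75.7 and lay below the floor on 4 of 5 days. The higher level of Ccnd3 at day 15 thus rests on 1 probe set.

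Of the Cip/Kip inhibitors, Cdkn1a and Cdkn1b had different courses. Cdkn1a encodes p21, a target of the p53 protein, which is induced by DNA damage, stress and some growth signals. Its brightest probe set had 7765, 3172, 1633, 2524 and 4193 in order of day. The other had 1245, 441, 184, 111 and 262. Both were highest at day 2, lower at day 9 than at day 6, and higher at day 15 than at day 12. With the brightest probe set, Cdkn1a was 2.45-fold, 4.75-fold and 3.08-fold lower at days 6, 9 and 12 than at day 2, and 1.85-fold lower at day 15. By the other it was 2.82-fold, 6.75-fold, 11.2-fold and 4.75-fold lower at days 6, 9, 12 and 15. By brightest probe sets, a course at least 2-fold below day 2 on days 6, 9 and 12 but not on day 15 was seen in 0.614% of all kept genes. That rule describes the course of Cdkn1a itself, so the share is a description and not a test. The dimmer probe set of Cdkn1a does not meet the rule, being 4.75-fold lower at day 15. The range of the brightest probe set over the 5 arrays, 2.25 on the log2 scale, was exceeded by 8.34% of genes.

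Cdkn1b encodes p27, which accumulates in resting cells and is controlled largely through breakdown of the protein. Its brightest probe set had 515, 708, 921, 730 and 1187, the highest at day 15, which was 2.30-fold above day 2. The dimmer one had 119, 165, 79.4, 94.0 and 98.0, and was 1.22-fold lower at day 15 than at day 2. Against day 2 the probe sets shared a direction at day 6 only, where both were 1.38-fold higher.

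Among the INK4 inhibitors, Cdkn2b was the one that differed by 2-fold. It encodes p15, which is known in other cell types as a gene induced by transforming growth factor beta. Its only probe set had 375, 987, 2175, 2170 and 2872 in order of day. Cdkn2b was 2.63-fold higher at day 6, 5.80-fold higher at day 9, level from day 9 to day 12, and 7.66-fold higher at day 15, all against day 2. A larger log2 difference between those days was seen in 2.20% of kept genes. Cdkn2a, next to it on chromosome 4 with no protein-coding gene between them in the RefSeq table, encodes p16 and, in another reading frame, p19ARF. Cdkn2a had 136, 166, 137, 181 and 209 by its only probe set, which was not shown to separate both transcripts. Day 15 was 1.54-fold above day 2, and no value was far above the floor. Cdkn2c, which encodes p18, had 1393, 1842, 1747, 2409 and 1774, with the highest value at day 12 and a difference of 1.27-fold between day 15 and day 2. Genes with 1 probe set have no second reading on these arrays.

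Rgcc, also called Rgc32, encodes a small protein that in human cells has been found to bind CDK1 and that was first described as a gene responding to complement. The brightest of its 2 probe sets had 86.3, 248, 529, 973 and 1828 in order of day, each above the one before. The other had 99.6, 73.2, 393, 650 and 1322, with its lowest value at day 6, at the floor. Both were close to the floor at day 2 and highest at day 15. Against day 2, Rgcc was 21.2-fold higher at day 15 by the brightest probe set and 13.3-fold higher by the other, and they disagree at day 6, at 2.87-fold higher and 1.36-fold lower. Since day 2 lay near the floor, the size of the difference depends on how low values are treated: the log2 difference of the brightest probe set was 4.40, but 3.33 with the floor at the 60th percentile and 3.58 with a pseudocount. Only 0.551% of kept genes had a larger log2 difference than Rgcc. By brightest probe sets, a higher value at every step was seen in 2 of the 9 genes, Ccnd3 and Rgcc, where 4.21% of all kept genes had one. The second probe set of each was lower at day 6 than at day 2. Cdkn2b, and Rgcc by its brightest probe set only, were at least 2-fold above day 2 on every later day, where 6.33% of kept genes were.

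**Figure D2:**
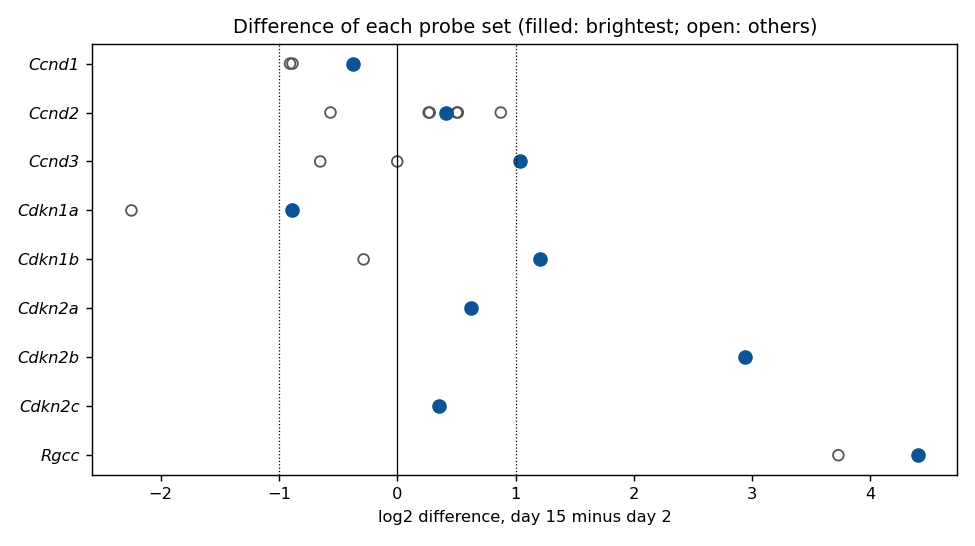
The log2 difference between day 15 and day 2 for each of the 22 probe sets, by gene, with the brightest probe set filled and the others open and dotted lines at 2-fold. Both probe sets of Rgcc lie beyond 3.7, and the probe sets of Ccnd3 and Cdkn1b fall on both sides of 0.

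Differences between probe sets of a gene gave a guide to the error of a single reading. Among 2014 genes with exactly 2 probe sets that passed the filter, the disagreement of the 2 gave an SD of 0.60 for the log2 difference (day 15 minus day 2) read from 1 of them. The differences of Rgcc (4.40) and Cdkn2b (2.94) were several times that spread, and those of Ccnd1, Ccnd2 and Cdkn2c were smaller than it. Ccnd3 (1.04), Cdkn1b (1.20), Cdkn1a (-0.89) and Cdkn2a (0.62) lay between. This spread holds no variation between arrays, dishes or labelling, since probe sets are read on the same arrays.

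**Figure D3:**
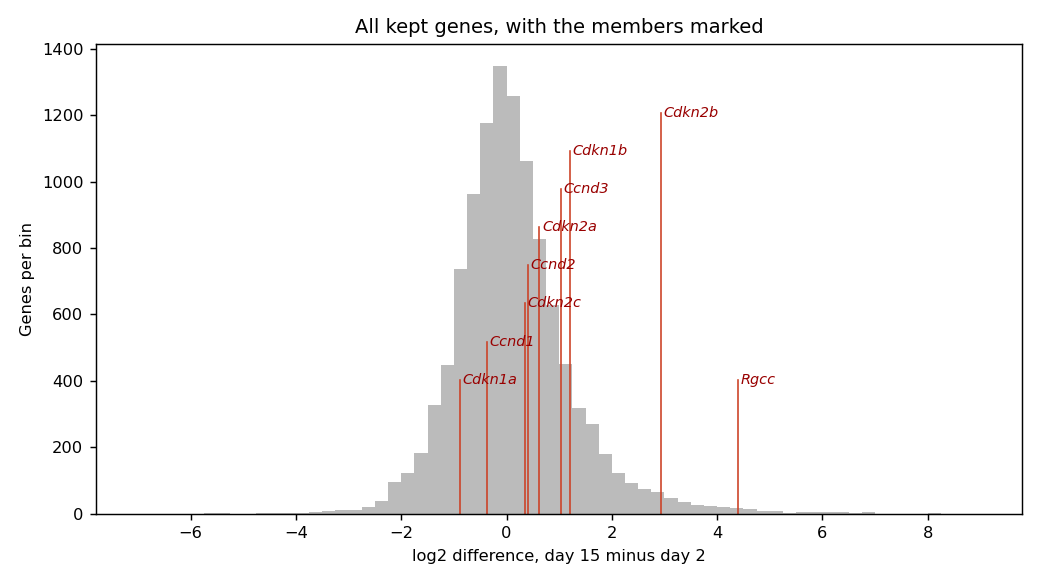
Distribution of the log2 difference between day 15 and day 2 over the 11075 kept genes in bins of 0.25, with a red line for each of the 9 genes at its own difference (line heights have no meaning). Rgcc at 4.40 and Cdkn2b at 2.94 lie in the upper tail, and the other 7 lie between -0.89 and 1.20.

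By step, and by brightest probe sets, the differences of 2-fold or more lay between days 2 and 9. The first step spans 4 days and the others 3. At day 6 against day 2, Cdkn2b and Rgcc were 2-fold or more higher, where 10.2% of genes were, and Cdkn1a was 2-fold or more lower, where 5.7% were. The same 3 genes passed 2-fold in the same directions at day 9 against day 2, where 15.1% of genes were higher and 10.3% lower. At day 9 against day 6, Cdkn2b and Rgcc were again 2-fold or more higher, where 5.87% were, and none was that much lower, where 4.06% were. Cdkn1a was 1.94-fold lower in that step. At day 12 against day 9 none of the 9 passed 2-fold, where 1.72% of genes were higher and 1.51% lower. At day 15 against day 12 none passed either, where 4.23% were higher and 3.92% lower. In that last step Rgcc was 1.88-fold, Cdkn1a 1.66-fold and Cdkn1b 1.63-fold higher, and Cdkn2c was 1.36-fold lower. The other probe sets differed here: the dimmer ones of Cdkn1a and Rgcc and the second of Ccnd3 were 2.36-fold, 2.03-fold and 2.15-fold higher at day 15 against day 12. They differed in earlier steps too. At day 6 against day 2, the other probe sets of Ccnd1 were 2.79-fold and 2.65-fold lower. The second of Ccnd3 was 3.43-fold lower and that of Rgcc 1.36-fold lower there, and a dimmer one of Ccnd2 was 2.02-fold higher. At day 9 against day 6, the dimmer ones of Cdkn1a and Cdkn1b were 2.39-fold and 2.08-fold lower, and that of Rgcc was 5.37-fold higher.

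With 1 array per day, the test run was one of trend, a straight line of log2 intensity on day fitted with limma over all 11075 genes, with other shapes of trend as alternatives. Rgcc rose by 0.338 ± 0.0212 (SE, n = 5 arrays) on the log2 scale per day, with a limma adjusted p of 0.0350. Its unadjusted p was the lowest of all genes, and 6 genes in all rose, 0.0542% of those tested. The call of Rgcc did not hold when any 1 array was left out (limma adjusted p between 0.0674 without day 15 and 0.269 without day 2). Over all alternatives its adjusted p lay between 0.0148 and 0.269. Cdkn2b had a slope of 0.223 ± 0.0379 (SE, n = 5 arrays) and a limma adjusted p of 0.0734, with 0.0133 (log2 of day in place of day) to 0.325 (without day 2) over the alternatives. Ccnd3 and Cdkn1b had limma adjusted p values of 0.135 and 0.142, and the other 5 genes had values from 0.290 for Cdkn2a to 0.713 for Ccnd2. At an unadjusted limma p under 0.05, 4 members had a rising line (Ccnd3, Cdkn1b, Cdkn2b and Rgcc), where 14.4% of genes had one. No member fell by this test (0 after adjustment, with 0% of all genes, and 0 at an unadjusted limma p under 0.05, with 12.7%). A straight line does not describe a course with a minimum, and Cdkn1a had a limma adjusted p of 0.0540 with a quadratic term added, against 0.502 for the line, and at most 0.739 (no filter) over the alternatives.

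The courses most like those of 5 members, whose range was at least 1 on the log2 scale, were sought among 10700 other genes with an official symbol, by the root mean square (RMS) difference of log2 intensities centred on their own mean over the 5 arrays. For Rgcc the nearest were Actg2 (gamma 2 smooth muscle actin), Gpx3 (a secreted glutathione peroxidase) and Cnrip1, at RMS differences of 0.20, 0.21 and 0.26, and no gene lay under 0.2. For Cdkn2b they were Itgb8 (integrin beta 8), Dlx5 and Meox2 (homeobox transcription factors), at 0.10, 0.10 and 0.12. Dlx5 and Meox2 were below the floor at day 2, so their course there is a bound. For Cdkn1a they were Cadm4, Pask and Cgref1, at 0.11, 0.13 and 0.13, and 9 genes lay under 0.2. For Ccnd3 and Cdkn1b, 602 and 263 genes lay under 0.2. The RMS difference was not scaled to range, so these counts depend on how wide a course is. Ranges were 1.04 for Ccnd3, 1.20 for Cdkn1b, 2.25 for Cdkn1a, 2.94 for Cdkn2b and 4.40 for Rgcc. The nearest to Ccnd3 were Epb41l4a, Dnal1 and Ddb2, and the nearest to Cdkn1b were Gem, Tmem179b and Enpp4. Within the set, by brightest probe sets, the most alike pair was Ccnd3 and Cdkn1b, at an RMS difference of 0.129. The least alike were Cdkn1a and Rgcc, at 2.02. The second probe sets of Ccnd3 and Cdkn1b were not alike at day 6, at 3.43-fold lower and 1.38-fold higher than day 2.

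**Figure D4:**
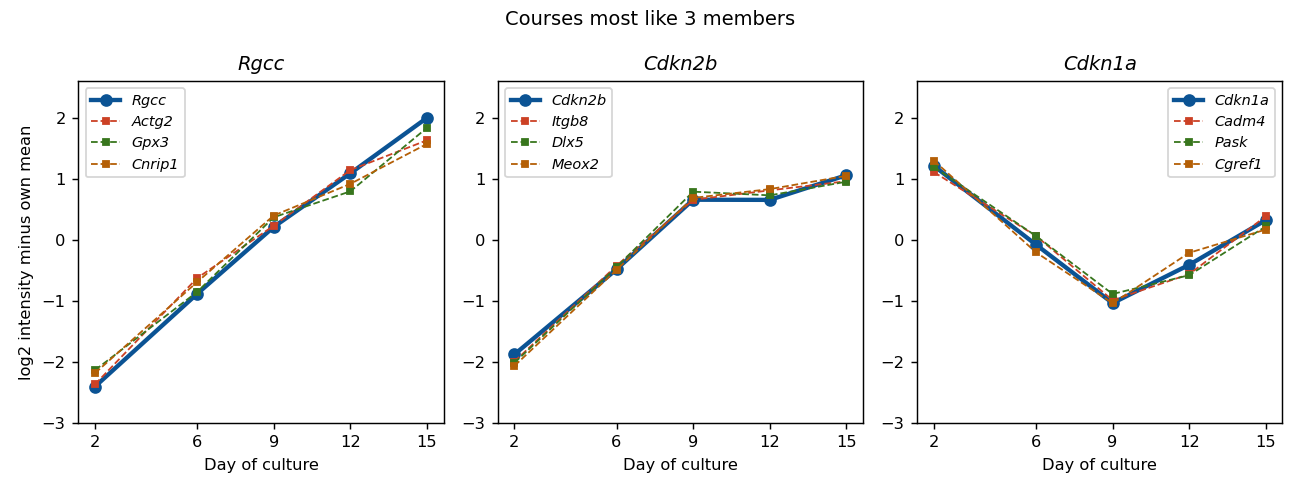
Log2 intensity (floored at 73.1) minus each gene's own mean over the 5 arrays, by day, for Rgcc, Cdkn2b and Cdkn1a (thick lines) and the 3 genes with the most similar course to each (dashed). Rgcc climbs at a near constant rate, and Cdkn1a has its minimum at day 9. Cdkn2b is higher at each day up to day 9, nearly level from day 9 to day 12, and highest at day 15.

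Other genes of the same pathway were counted against the shares of all kept genes at day 15 against day 2, 16.2% of them 2-fold or more higher and 11.6% that much lower, and these shares apply to each list. Of 24 genes for G1 cyclins, CDKs, retinoblastoma proteins and E2F factors, 23 passed the filter, and at day 15 against day 2, 2 of them were 2-fold or more higher, 2 that much lower and 19 neither, with a median log2 difference of -0.12. The 2 higher genes were Cdkn1c and Rbl2. Cdkn1c, which encodes the third Cip/Kip inhibitor p57, had 680, 5188, 6494, 3959 and 2975 in order of day, which put it 9.55-fold above day 2 at day 9 and 4.38-fold above it at day 15. Rbl2, a relative of the retinoblastoma gene named after its values were seen, was 2.15-fold higher at day 15. The 2 lower genes were E2f8, a repressing E2F factor, at 2.70-fold, and Cdk6, a partner of the D cyclins, at 2.41-fold (948 at day 15, 2286 at day 2). The other partner, Cdk4, was 1.19-fold lower, Cdk2 1.05-fold higher, Rb1 1.33-fold higher, E2f1 1.34-fold higher and the cyclin E gene Ccne1 1.53-fold lower (2.10-fold lower at day 9). Cdkn2d, the INK4 gene for p19, was 1.87-fold higher.

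Of 24 measured genes that retinoblastoma proteins and E2F factors control in S phase and mitosis, 11 lay 2-fold or more below day 2 at day 15, 0 that much above it and 13 neither, where 11.6% of all kept genes were lower and 16.2% higher. The list median was -0.78. Against day 2, days 6, 9 and 12 had list medians of -0.55, -1.25 and -1.11. Mcm2, a subunit of the replicative helicase, was 3.43-fold lower and Rrm2, which makes nucleotides for DNA, 3.18-fold lower. The mitotic kinase gene Plk1 was 2.76-fold lower and the proliferation marker gene Mki67 1.62-fold lower. At day 15, Ccnd1 and Cdkn1a were also below day 2, and Cdkn2b and Rgcc above it.

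Genes regulated by p53, of which Cdkn1a is one, were lower in 6 of 19 measured members by at least 2-fold at day 15 against day 2, higher in 1 and neither in 12, where 11.6% of all kept genes were lower and 16.2% higher. The list median was -0.78. Mdm2, which encodes the ubiquitin ligase for p53, was 5.58-fold lower (713 at day 15, 3978 at day 2). Perp, a cell adhesion gene, was 5.30-fold lower, and the higher gene was Sesn1, a stress response gene, at 4.51-fold. The other 4 lower genes, Pmaip1, Eda2r, Aen and Ccng1, were named after their values were seen. For days 6, 9 and 12 the list medians against day 2 were -0.47, -0.54 and -0.39. Trp53 itself was not analysed here.

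**Figure D5:**
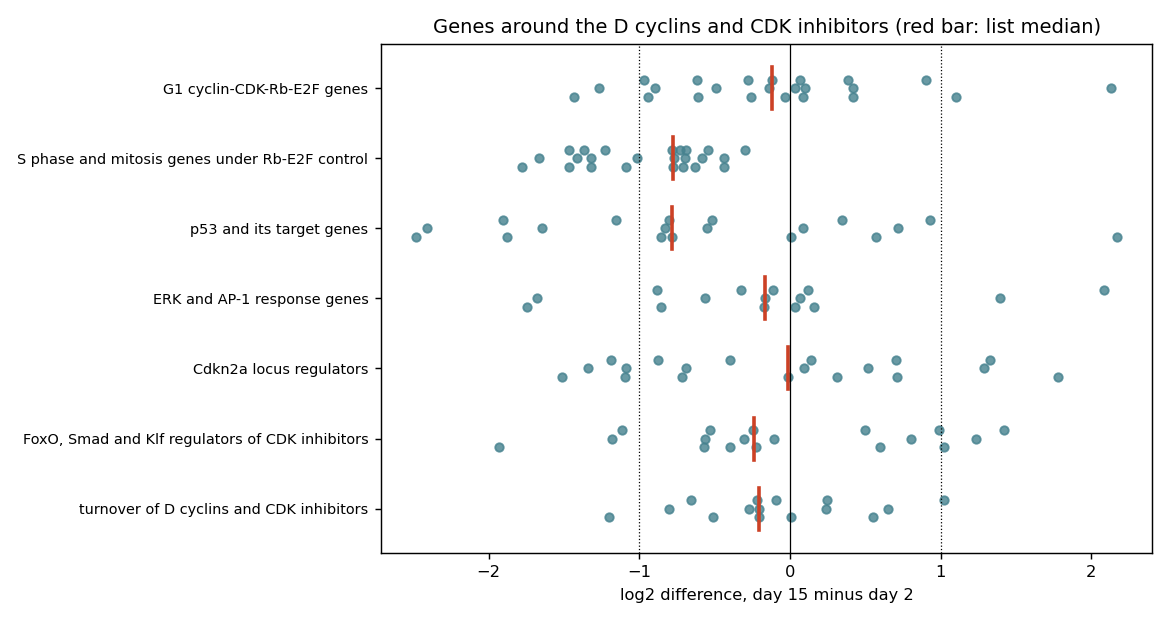
The log2 difference between day 15 and day 2 for each measured gene of 7 lists around the D cyclins and CDK inhibitors, 1 point per gene, with a red bar at the list median and dotted lines at 2-fold. The medians of the S phase and mitosis list and of the p53 list both lie at -0.78, and the other 5 lie between -0.24 and -0.01.

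Of 15 measured response genes of ERK and AP-1, which relay growth signals to Ccnd1, 2 lay 2-fold or more above day 2 at day 15, 2 that much below it and 11 neither, with a median of -0.16, counts near the shares of all genes. At day 9 against day 2, Fos, Egr1 and Junb, immediate early genes named after their values were seen, were 16.8-fold, 3.23-fold and 2.03-fold higher, and they were within 2-fold of day 2 at days 6, 12 and 15. Fosl1, an AP-1 subunit gene, had 4168, 577, 550, 373 and 1299 in order of day, so like Ccnd1 it was highest at day 2 and higher at day 15 than at day 12. Phlda1 was 3.36-fold lower at day 15. Spry4, an inhibitor of receptor signalling, was 4.25-fold higher but 1.26-fold lower by another probe set, and Fosl2, named after its values were seen, was 2.63-fold higher.

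Of 19 measured regulators of the Cdkn2a locus, including Polycomb repressors, 3 were 2-fold or more higher at day 15 against day 2, 5 that much lower and 11 neither, with a median of -0.01. The other 2 higher genes (Ets2 and Kdm6b) and the other 3 lower ones (Phc2, Ets1 and Eed) were named after their values were seen. Jarid2, a Polycomb partner, was 3.43-fold higher, Id1 2.54-fold lower and Bmi1, the Polycomb gene best known for repressing Cdkn2a, 1.32-fold lower. Ring1, a Polycomb subunit gene, was 2.85-fold lower, but its only probe set was uneven (353, 23.5, 150, 239 and 124 in order of day). It was below the floor at day 6. Kdm6b was 1.05-fold lower by another probe set. Of 18 FoxO, Smad and Klf regulators, 3 were higher, 3 lower and 12 neither, with a median of -0.24, and Smad4, Foxo4 and Klf10 among them were named after their values were seen. Smad7, an inhibitor of transforming growth factor beta signalling, was 3.81-fold lower (1.05-fold by another probe set), and the ligand gene Tgfb3 and the receptor gene Tgfbr2 were 2.67-fold and 2.35-fold higher. Of 15 genes for the turnover of D cyclins and CDK inhibitors, 1 was higher, 1 lower and 13 neither, with a median of -0.20. The higher one was Skp1 at 2.03-fold and the lower one Fbxw7 at 2.30-fold, both subunits of ubiquitin ligases, and Skp2, which targets p27, was 1.74-fold lower. In each of the 7 lists, 0 genes passed the limma trend after adjustment. At an unadjusted limma p under 0.05 the falling genes numbered 11 in the S phase and mitosis list, 7 among Cdkn2a regulators, 6 in the p53 list, 3 in the G1 list, 2 each in the FoxO and turnover lists and 1 in the ERK list, and 0 to 2 genes per list were rising, where 12.7% of all kept genes were falling and 14.4% rising.

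Markers of several cell types differed over the same days, and in these bulk arrays fewer cells of a type and less RNA per cell cannot be told apart. Of 9 chondrocyte markers, 7 lay 2-fold or more below day 2 at day 15 and 1, Matn1, above it, and their summed intensity was 131815, 116716, 71621, 31320 and 44459 in order of day. All 5 measured osteoblast markers, 5 of 6 fibroblast markers and all 5 measured adipocyte markers lay 2-fold or more above day 2 at day 15. The summed intensity of the adipocyte markers was 1697, 10400, 55210, 99113 and 52214 in order of day, that of the osteoblast markers 774, 8209, 30705, 52258 and 78072, and that of the fibroblast markers 6919, 33145, 92212, 108106 and 121010. Rgcc and Cdkn2b were higher as the osteoblast and fibroblast sums were. The adipocyte sum was also above day 2 on each later day, but lower at day 15 than at day 12. Col1a1 (36146) and Ibsp (35026) had the largest intensities in the osteoblast sum at day 15. The part of these cells in the courses of Rgcc and Cdkn2b was not tested. Summed markers ranged from 658 to 1509 over the arrays for macrophages, 580.6 to 1070 for skeletal muscle, 678 to 2797 for epithelium and 1697 to 3063 for Schwann cells. The chondrocyte, macrophage and epithelial sums were all highest at day 2, as Cdkn1a and Ccnd1 were, and the part of these cells was not tested. Single markers differed. Col2a1, Acan, Col11a1, Hapln1 and Sox9 were highest at day 2, but Col9a1 and Col9a2 at day 6 and Matn1 and Matn3 at day 9. Csf1r, Cd14 and Ptprc were highest at day 2, but Adgre1 at day 6, Lyz2 at day 12 and Cd68 at day 15. Of the 6 skeletal muscle markers in the sum, 5 did not pass the filter, and only Acta1 did. Ptprc in the macrophage sum and Cdh1 and Krt14 in the epithelial sum did not pass it either. None of 6 endothelial markers passed the filter. The 3' to 5' signal ratio for Actb, which is raised where RNA is broken down, was 1.17 at day 2 and between 1.23 and 1.27 on the other days.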

How the data were processed

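Per the labels' protocols, total RNA from 5 dishes (1 array per day) was labelled with biotin for single-colour arrays. The authors deposited an intensity for each probe set, not on a log scale. The submitters' processing notes name MAS5, with its version not given in the sources used here. Every array had a mean of 500.003 with 2% cut from each end. That scaling hides a shift shared by most transcripts. Only the processed table was used, and the number of arrays limits the precision.

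Gene names came from GEO's platform annotation, updated by a RefSeq gene table (GRCm38.p6), which placed 34741 of 34945 probe sets with 1 symbol under a current symbol. Of the rest, 64 were controls, 932 had several symbols and 9160 none. A floor of 73.1 (40th percentile) was applied before log2. The brightest probe set by mean stood for a gene, and genes were kept at a mean of 105.93 or above, the median over probe sets without controls. Folds are ratios of floored intensities.

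Differences between days were counted at 2-fold without a test. The trend on day was fitted with limma (3.58.1, run in R 4.3.3; moderated two-sided test with 3 residual degrees of freedom, Benjamini-Hochberg over 11075 genes, threshold 0.05) and tested on simulated data. There, 1, 32, 43 and 49 of 50 genes were called at total log2 changes of 1, 2, 3 and 4. Another 12 calls fell on genes given no change. A change of 1 was thus mostly missed. The p-values measure only scatter about the line among 5 arrays. Python 3.11.15, pandas 2.3.3 and numpy 2.4.6 did the rest. Members and lists were chosen with earlier results of these data known. Named were all members, from each of 7 pathway lists the 3 genes with the largest difference plus 12 chosen genes, and 3 most alike genes per member. Markers of 9 cell types were listed likewise. Alternatives of scaling, floor, filter, probe-set rule, days and model were run.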

Additional observations from a re-analysis of the deposited data

How the results depend on the processing

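The count of 4 members 2-fold or more above day 2 at day 15 was 2 with the mean over probe sets, days pooled (12 and 15 against 2 and 6), day 15 against day 6 or day 9, day 12 against day 2, and, chosen after seeing the data, the second brightest or the lowest-differing probe set. The count of 0 members lower was 1, in each case Cdkn1a, with the mean over probe sets, day 12 against day 2, a threshold of 1.5-fold, and the second brightest or lowest probe set. By that other probe set the log2 differences of Ccnd3 and Cdkn1b had the opposite sign, -0.65 and -0.28. The log2 difference of Rgcc, 4.40, was 3.33 under a floor at the 60th percentile and 3.58 with a pseudocount. The count of 1 member with a rising trend was 0 with a higher floor (60th percentile), the mean over probe sets, no filter, every probe set as a row, and each array left out (0 to 0), and 2 (Cdkn2b and Rgcc) with a filter at the 70th percentile, log2 of day, and a quadratic term. Over fits without 1 array, slopes lay between -0.0567 and 0.0372 for Ccnd1, -0.0365 and 0.0384 for Ccnd2 and -0.183 and 0.0612 for Cdkn1a, each changing sign without day 2, none past the threshold. Over all genes the 6 rising and 0 falling trends were 66 and 22 with a pseudocount, 119 and 85 with the stricter filter, 734 and 476 with log2 of day, 12 and 1 with median centring, and 705 either way with a quadratic term. No genes passed with the floor at the 60th percentile, no filter, every probe set as a row or any array left out. The 1798 higher and 1283 lower genes were 1159 and 783 with the stricter filter, 1091 and 622 with days pooled, 932 and 682 against day 6, 554 and 449 against day 9, and 2932 and 2635 at 1.5-fold. Median centring shifts every log2 difference between day 15 and day 2 by 0.14 and left the members' counts at 4 and 0. Quantile normalization and a pseudocount each left 3 members higher, without Ccnd3. Apart from fewer arrays or genes in the fit, the cause of these changes was not tested. No paired analysis was possible because each day has 1 array.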
